A study of Mus musculus with 8 samples.

Results

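The mRNA of 10 genes of antigen presentation was followed in the brains of young-adult and aged mice. They were the class I heavy chains H2-K1 and H2-D1, the class I light chain B2m, the peptide transporter subunits Tap1 and Tap2, the loading chaperone Tapbp, the class II chains H2-Aa, H2-Ab1 and H2-Eb1, and the class II invariant chain Cd74. These members were picked by name, with earlier results of these data known, and all 10 were found among the 22430 genes of the count table. All 10 also passed the filter on low counts, which left 16730 genes for the test. The animals were male C57Bl/6JRj mice, 4 aged 6 months (6m) and 4 aged 24 months (24m), with no treatment or genetic change named in the labels. Each library was made from the polyadenylated RNA of the brain of 1 animal, given as whole brain in the sample titles and as a hemisphere in the protocol. The comparison asks how the mRNA levels of the aged brain differ from those of the young adult.

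Class I molecules are built from a heavy chain and B2m, are found on most nucleated cells and show peptides from the cell's own proteins to CD8 T cells. Their peptides are cut by the proteasome, carried into the endoplasmic reticulum by the Tap1-Tap2 transporter and loaded with the help of Tapbp. Class II molecules are pairs of an alpha and a beta chain that are guided by Cd74, load peptides from ingested material and are made mainly by B cells, dendritic cells and macrophages, while microglia of the healthy brain carry little of them. In bulk tissue, fewer cells of a type and less RNA per cell cannot be told apart.

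The 8 libraries held 63460940 to 103462414 assigned counts, the deepest being 24m replicate 1, and the mitochondrial share was 5.26 to 6.52% at 6m and 3.18 to 3.69% at 24m. Markers of neurons, astrocytes and oligodendrocytes were present in every library, as the labelled tissue would have. The library 24m replicate 1 stood apart. Its mean Spearman correlation with the other 24m libraries was 0.979, against 0.995 among those 3. With the 6m libraries its mean correlation was 0.978, against 0.935 to 0.958 for the other 24m libraries, so it departed from its age across all genes. The summed level of 9 markers of B and plasma cells was 1160 CPM (counts scaled to a library total of 1e+06) in 24m replicate 1, 45.9 to 82.2 CPM in the other 24m libraries and 69.3 to 76.7 CPM at 6m. Each member's comparison is therefore given with and without it.

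With all 8 libraries, Tap1 was the only member called higher in the aged brain, and none was called lower. A call required a Benjamini-Hochberg adjusted p (padj) of at most 0.05 from edgeR's quasi-likelihood test and a log2 fold change (log2FC) of at least 0.58 in size. Among all tested genes 25.3% were called higher and 18.3% lower. With only 10 members, counts of 1 and 0 cannot be told apart from these shares. At an unadjusted p below 0.05, 3 members were higher and 0 lower. DESeq2 called 2 members higher and 0 lower, beside 25.1% and 18.5% of all genes. It gave no padj for H2-Aa, H2-Ab1, H2-Eb1 and Cd74, so these could not be called in that fit. Limma-voom called 0 members in either direction, with 2 higher at an unadjusted p below 0.05, beside 24.5% of all genes called higher and 18.8% lower. Without 24m replicate 1, no member was called higher and H2-Ab1 and H2-Eb1 were called lower, beside 27.8% and 21.9% of all genes. In that comparison 3 members were higher and 2 lower at an unadjusted p below 0.05. The share of all genes at that unadjusted threshold is not given here. The median log2FC of the 10 members was 0.68 (range -0.07 to 1.26) with all libraries and -0.07 (range -0.78 to 0.46) without that one. The median of all genes was close to 0 in both cases. All 4 values at 24m lay above all 4 at 6m for 2 members, Tap1 and Tapbp, against 28.4% of all genes. The reverse order held for 0 members, against 26.8% of all genes.

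**Figure D1:**
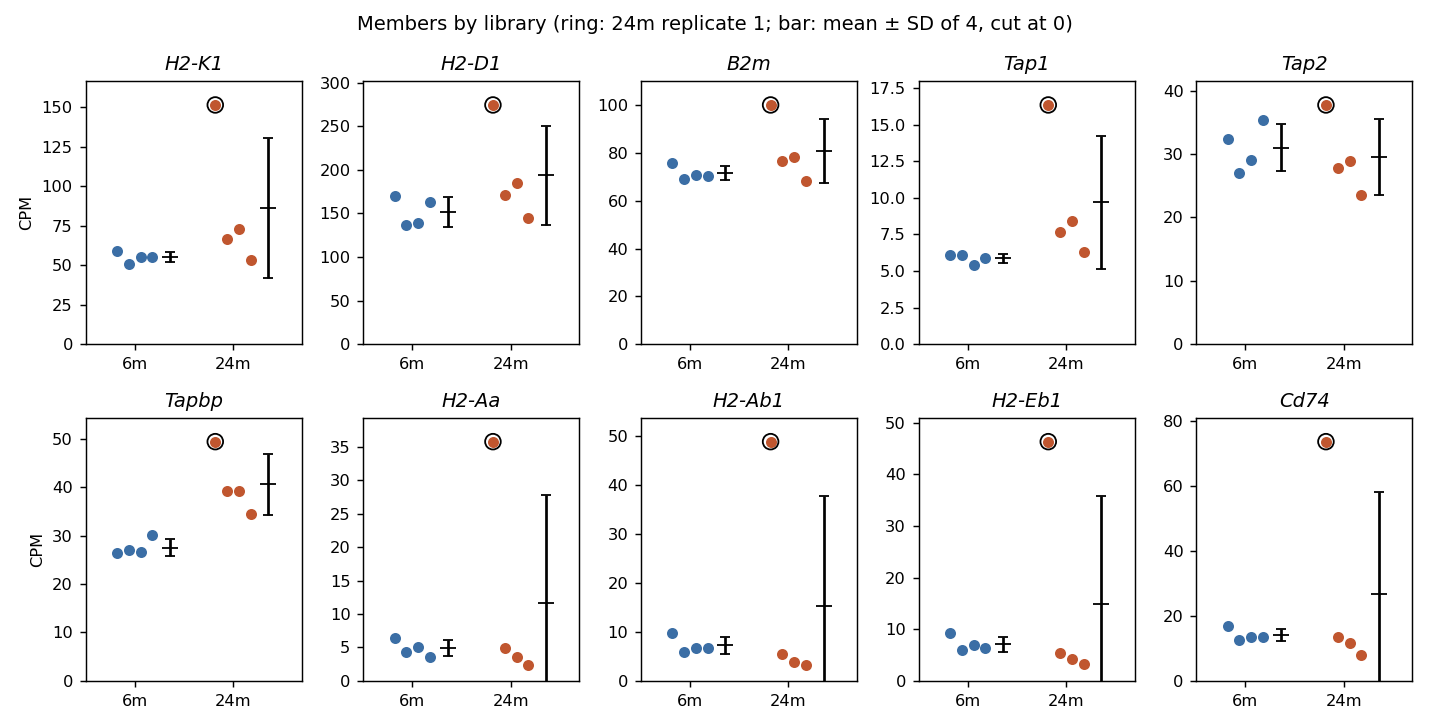
Normalised level (CPM, linear axis from 0) of each member in the 4 libraries of 6m (blue) and the 4 of 24m (orange), with the mean ± SD of each age drawn as a black bar that is cut at 0. The ringed point is 24m replicate 1, which is the highest library for all 10 members, and for H2-Ab1 it reads 48.9 CPM while the other 24m libraries read 3.15 to 5.52.

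H2-K1 (ENSMUSG00000061232, GRCm39 chr17:34214987-34219321, minus strand) and H2-D1 (ENSMUSG00000073411, chr17:35481691-35486475, plus strand) encode the classical class I heavy chains of this strain. The level of H2-K1 was 59.2, 51.0, 55.3 and 55.1 CPM in 6m replicates 1 to 4, and 151, 66.5, 72.8 and 53.3 CPM in 24m replicates 1 to 4. Of the 24m libraries, 24m replicate 1 was far above the rest, replicates 2 and 3 lay above every 6m library, and replicate 4 lay within the 6m range. The log2FC was 0.64 ± 0.28 (SE, n = 4 per age, edgeR padj 0.069), and 0.23 ± 0.10 without 24m replicate 1 (padj 0.0672). H2-K1 was called higher in 7 of 20 alternatives, among them DESeq2 (0.63, padj 0.0444), the GC trend removed (0.77, padj 0.0151) and the length trend removed (0.88, padj 0.00777).

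H2-D1 read 170, 136, 139 and 163 CPM at 6m, and 274, 171, 185 and 144 CPM at 24m. The ages overlapped, with 24m replicate 4 again inside the 6m range. Its log2FC was 0.35 ± 0.18 (edgeR padj 0.117) and, without 24m replicate 1, 0.14 ± 0.10 (padj 0.234). The length trend is the trend, within each library, of log2 CPM relative to the gene's mean over the length of annotated exons. With it removed, H2-D1 was called higher (log2FC 0.64, padj 0.00192). Of the 100-base windows in its canonical transcript, 4.61% also occur in other class I genes such as H2-Q1, H2-T9 and H2-T23, and how reads from them were assigned was not stated. No such window of H2-K1 was shared.

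B2m (ENSMUSG00000060802, chr2:121977957-121983594, plus strand), the light chain that every class I molecule needs, had the smallest difference between the ages among the class I chains. It read 75.9, 69.2, 71.0 and 70.2 CPM at 6m and 100.2, 76.6, 78.5 and 68.3 CPM at 24m. The highest 6m library lay above the lowest 24m library, so the ages overlapped. The log2FC was 0.18 ± 0.11 (edgeR padj 0.202), and 0.07 ± 0.07 without 24m replicate 1 (padj 0.426). It too was called higher once the length trend was removed (log2FC 0.67, padj 5.2e-05).

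The sequences just before the start sites of class I genes hold known control elements, and they are shown here because these genes share a level pattern across libraries and because regulators of them are described further on. The RefSeq promoter table (built on GRCm38.p6) held 7 of the 10 members and had no entry for Tap2, H2-Ab1 and Cd74. The 250 bases before each start site were found once each in GRCm39. In the GENCODE annotation used here these windows lie partly or wholly in exons of extended transcripts or neighbouring genes, with all 250 bases in exons for H2-D1, Tap1 and Tapbp, 211 for B2m, 160 for H2-Eb1, 71 for H2-K1 and 1 for H2-Aa. H2-K1 and H2-D1 each hold a kappa B core (GGGNNTTCC) followed by an interferon-stimulated response element core (GAANNGAAA, here on the opposite strand). Both are in capitals, 5′ to 3′ on the gene's strand, with positions counted back from the RefSeq start site. The stretch of H2-K1 spans -111 to -82 (chr17:34219403-34219432, minus strand) and that of H2-D1 spans -171 to -142 (chr17:35481899-35481928, plus strand).
H2-K1: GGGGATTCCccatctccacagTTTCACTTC
H2-D1: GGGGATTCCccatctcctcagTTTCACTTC
The pair differ at 1 of the 30 bases. Searched on both strands, GGGNNTTCC matched 3 of the 7 members (H2-K1, H2-D1 and H2-Aa) and 4.98% of 32851 promoters, and GAANNGAAA matched 2 members and 6.31% of promoters. The other form of the response element core, GAAANNGAA, matched only B2m among the members and 7.13% of promoters, and the gamma-activated site TTCNNNGAA matched 0 members and 7.02% of promoters. GAANNGAAA was added to the search after the sequences had been read, so its count of 2 members is a description only.

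A CCAAT box, the sequence bound by nuclear factor Y, matched all 7 member promoters and 33.8% of all promoters. In the class I and class II chains a match lies on the opposite strand and reads ATTGG on the gene's strand, and H2-D1 and H2-Eb1 hold a further match on the gene's own strand. The stretches below show ATTGG in capitals for the class I heavy chains and for 2 class II chains.
H2-K1: cagctcttacccccATTGGgtggcgcgatc
H2-D1: aggtctcactatcATTGGgtggcgagattc
H2-Aa: agagaattttctgATTGGttctggcgagtt
H2-Eb1: tcctttgatgctgATTGGctcccagcactg
They lie at chr17:34219322-34219351 (minus strand), chr17:35481981-35482010 (plus), chr17:34506829-34506858 (minus) and chr17:34524769-34524798 (plus), in the order shown. An X box core (AGCAAC) matched H2-Eb1 alone among the members and 12.2% of promoters. These are matches of letters in a window of 250 bases and were not tested as binding sites.

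Tap1 (ENSMUSG00000037321, chr17:34405996-34416199, plus strand) and Tap2 (ENSMUSG00000024339, chr17:34422501-34435829, plus strand) encode the subunits of the peptide transporter. Tap1 read 6.11, 6.07, 5.42 and 5.92 CPM at 6m and 16.3, 7.68, 8.40 and 6.32 CPM at 24m. All 24m libraries lay above all 6m libraries, with 24m replicate 4 only just above the highest of them. The log2FC of Tap1 was 0.72 ± 0.26 (edgeR padj 0.0368), a fold change of 1.65. Without 24m replicate 1 it was 0.35 ± 0.12 (padj 0.0222), which passes the test but lies under the threshold on the fold change. The call was lost with the length trend removed (0.65, padj 0.0506), in DESeq2 after quantile normalisation (0.43, padj 0.22) and in limma-voom (0.64, padj 0.0694). The call was also lost on leaving out any 1 of the 6m libraries (padj 0.0658 to 0.0831), where the log2FC was 0.68 to 0.74.

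Tap2 read 32.4, 27.0, 29.1 and 35.4 CPM at 6m and 37.8, 27.8, 29.0 and 23.6 CPM at 24m. Apart from 24m replicate 1, which was highest, and 24m replicate 4, which was lowest, the 24m values fell inside the 6m range. Its log2FC was -0.07 ± 0.15 (edgeR padj 0.703), and -0.20 ± 0.11 without 24m replicate 1 (padj 0.12). The ratio of Tap2 to Tap1, each per kilobase of exon, was 6.68, 5.61, 6.76 and 7.55 at 6m and 2.91, 4.57, 4.35 and 4.71 at 24m. The ratio was lower in every 24m library than in any 6m library (two-sided exact permutation p 0.0286, the smallest that 4 against 4 can give). Adjusted over the 9 ratios examined, this p was 0.129. Without 24m replicate 1 the exact permutation p was 0.0571, the smallest that 3 against 4 can give (adjusted 0.103).

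Tapbp (ENSMUSG00000024308, chr17:34134873-34148267, plus strand), or tapasin, bridges the transporter and the empty class I molecule. It read 26.4, 27.0, 26.5 and 30.05 CPM at 6m and 49.4, 39.2, 39.2 and 34.4 CPM at 24m. Every 24m library lay above every 6m library. The log2FC was 0.56 ± 0.12 (edgeR padj 0.00233), a fold change of 1.48, and stayed at 0.46 ± 0.08 (padj 0.000356) without 24m replicate 1. Tapbp had the lowest padj of the 10 members with and without that library, and in both cases its log2FC lay under the threshold of 0.58. It was called higher in 6 of 20 alternatives, among them the GC trend removed (0.77) and leaving out 24m replicate 4 (0.63). Its locus overlaps Zbtb22 on the same strand and 2 gene models on the other.

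**Figure D2:**
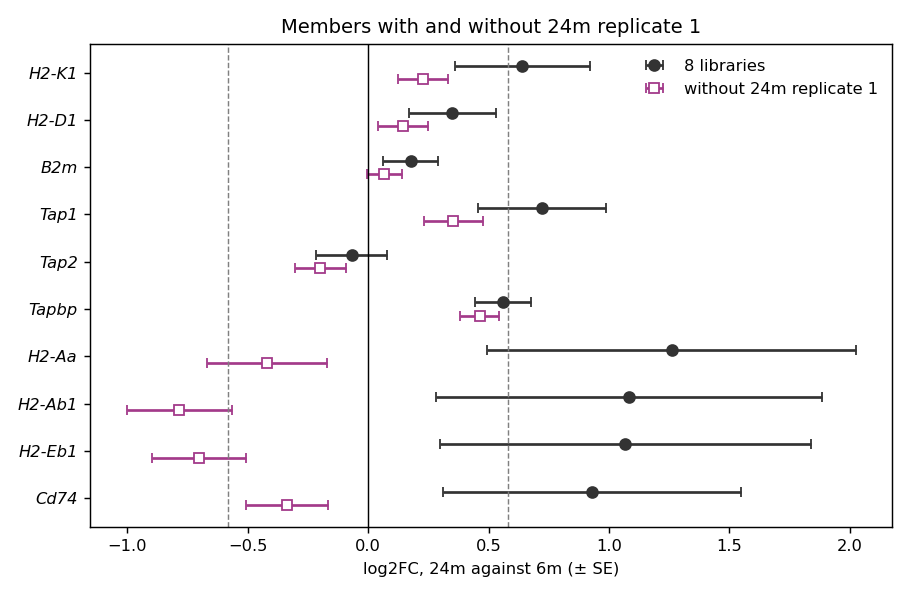
log2FC of 24m against 6m (horizontal axis, bars ± SE) for the 10 members from 8 libraries (filled circles) and without 24m replicate 1 (open squares), with dashed lines at the threshold of 0.58 in each direction. The class I genes, Tap1 and Tapbp stay on the right of 0 in both comparisons, while H2-Aa, H2-Ab1, H2-Eb1 and Cd74 move from between 0.93 and 1.26 to between -0.78 and -0.34.

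The class II chains were the members that rested most on 1 library. H2-Ab1 (ENSMUSG00000073421, chr17:34476663-34488393, plus strand), the beta chain of the I-A molecule, read 9.80, 5.84, 6.82 and 6.64 CPM at 6m and 48.9, 5.52, 3.94 and 3.15 CPM at 24m. 24m replicate 1 was 11.6 times the mean of the other 24m libraries, and these 3 all lay below every 6m library. The log2FC was 1.08 ± 0.80 with all libraries (edgeR padj 0.26) and -0.78 ± 0.22 without 24m replicate 1 (padj 0.00768), where H2-Ab1 was called lower. Markers of other cells moved in both directions in the same comparison. The summed log2 difference was -1.34 for monocytes and neutrophils (4 of 4 tested markers called lower) and -1.90 for red blood cells (5 of 5), and of 7 tested B and plasma cell markers 2 were called lower and 1 higher, against 21.9% and 27.8% of all genes. The summed difference was 1.05 for astrocytes (5 of 6 tested markers called higher), 0.14 for microglia (4 of 11 higher and 0 lower), 0.37 for dendritic cells (1 of 5 higher and 1 lower) and 0.34 for T and NK cells (3 of 5 higher and 1 lower). The part of these cells in the class II values was not tested.

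H2-Eb1 (ENSMUSG00000060586, chr17:34504236-34535648, plus strand), the beta chain of I-E, read 9.25, 5.90, 6.88 and 6.31 CPM at 6m and 46.3, 5.40, 4.21 and 3.37 CPM at 24m. The order of the libraries was as for H2-Ab1, with 24m replicate 1 highest and 24m replicates 2 to 4 below every 6m library. The log2FC went from 1.07 ± 0.77 (edgeR padj 0.248) to -0.70 ± 0.19 (padj 0.00753) without 24m replicate 1, and H2-Eb1 was then called lower, by 1.63-fold. H2-Ea, the alpha chain that would pair with it and that C57BL/6 mice are known not to make, had 0 counts in all 8 libraries, which allows up to 3 counts in each.

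H2-Aa (ENSMUSG00000036594, chr17:34493404-34506798, minus strand), the alpha chain of I-A, read 6.43, 4.37, 5.12 and 3.62 CPM at 6m and 35.8, 4.89, 3.64 and 2.38 CPM at 24m. Here 24m replicates 2 and 3 lay inside the 6m range and replicate 4 below it. The log2FC was 1.26 ± 0.77 (edgeR padj 0.175) and -0.42 ± 0.25 without 24m replicate 1 (padj 0.154). The annotated loci of H2-Aa and H2-Eb1 overlap on opposite strands, and whether counting used the strand was not stated.

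Cd74 (ENSMUSG00000024610, chr18:60936899-60945731, plus strand), the invariant chain that blocks the class II groove until peptides are met, was the most abundant class II component. It read 16.7, 12.6, 13.4 and 13.4 CPM at 6m and 73.6, 13.6, 11.6 and 7.98 CPM at 24m. Without 24m replicate 1, the ages overlapped only through 24m replicate 2, which lay above 3 of the 6m libraries. The log2FC was 0.93 ± 0.62 (edgeR padj 0.213), and -0.34 ± 0.17 without 24m replicate 1 (padj 0.0995). The ratio of Cd74 to the sum of the 3 class II chains, per kilobase, was 0.75 to 0.91 at 6m, 0.648 in 24m replicate 1 and 1.00 to 1.15 in the other 24m libraries. Over the ages this ratio did not pass the test (two-sided exact permutation p 0.457, and 0.0571 without 24m replicate 1, adjusted over 9 ratios 0.103).

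The high class II level of 24m replicate 1 came with markers of other cells. Ighm, the heavy chain of immunoglobulin M, had 80948 counts in it and 3890 to 5713 in the other 7 libraries, and Igkc, the kappa light chain, had 37436 against 31 to 753. Mzb1, a chaperone of plasma cells, had 636 counts against 6 to 17, and the B cell receptor component Cd79a had 344 against 24 to 73. Of the 9 markers of the B and plasma cell list, 8 had their highest level in that library, the exception being Pax5, and in the other libraries Ms4a1, the gene of the B cell antigen CD20, had 0 to 2 counts. The T and NK cell markers summed to 9.28 CPM there, against 7.12 to 8.79 CPM for the remaining 24m animals and 5.59 to 6.67 CPM at 6m, so that all 24m libraries lay above all 6m libraries. Within that list Cd3d had 80 counts in 24m replicate 1 against 1 to 12 in the others, whereas Cd4 read 3.52 CPM there and 5.28 to 6.42 CPM in 24m replicates 2 to 4. Cd4 and Trac, a T cell receptor chain, made up most of the sum and moved apart with age. The mean of Cd4 was 3.36 CPM at 6m and 5.70 CPM in 24m replicates 2 to 4, and that of Trac 2.41 and 1.35 CPM. For dendritic cell markers the sum was 24.3 CPM in 24m replicate 1, against 22.4 to 24.0 CPM for the remaining 24m animals and 16.6 to 19.3 CPM at 6m. The ages again did not overlap, and Xcr1 and Clec9a had 0 to 4 counts throughout. From 6m to 24m replicates 2 to 4 the mean of Zbtb46 went from 3.81 to 8.33 CPM and that of Flt3 from 12.7 to 13.9 CPM. Those of Itgae (0.854 to 0.448 CPM) and Cd209a (0.427 to 0.346 CPM) fell. Markers of monocytes and neutrophils summed to 7.71 CPM in 24m replicate 1, 2.74 to 3.42 CPM in 24m replicates 2 to 4 and 4.79 to 11.6 CPM at 6m, so that 24m replicate 1 lay inside the 6m range. Those of border macrophages summed to 4.74 CPM there, against 3.48 to 4.17 CPM in 24m replicates 2 to 4 and 3.42 to 4.20 CPM at 6m. Red blood cell markers summed to 4156 CPM there, 1242 to 2122 CPM in 24m replicates 2 to 4 and 5426 to 7604 CPM at 6m. Endothelial markers were lowest there, at 57.9 CPM against 71.7 to 86.5 CPM in 24m replicates 2 to 4 and 96.3 to 130 CPM at 6m. Microglia markers summed to 615 CPM there, 483 to 546 CPM in the other 24m libraries and 453 to 477 CPM at 6m. The part of these cells in the class II levels was not tested.

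**Figure D3:**
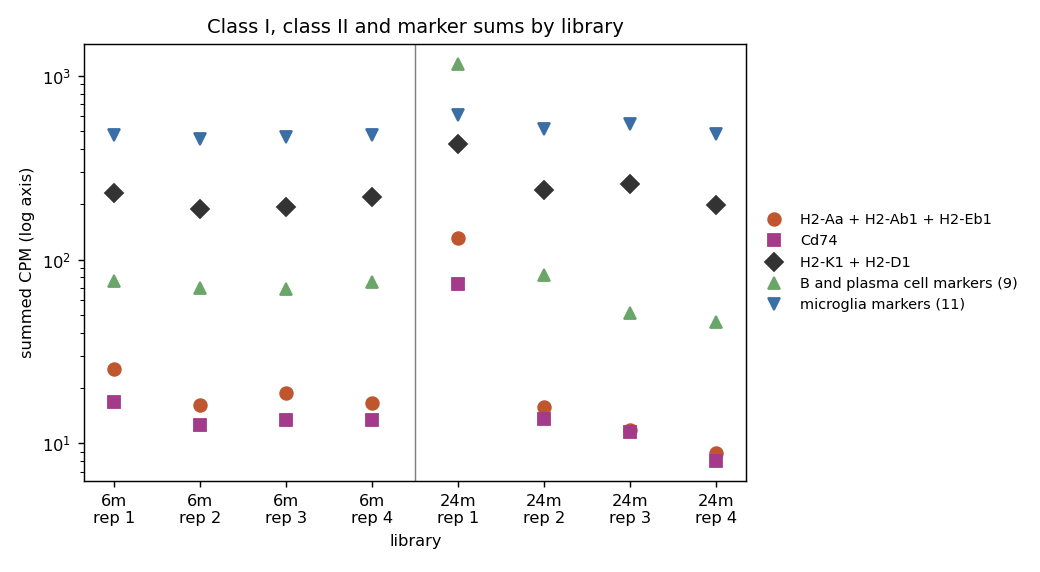
Summed CPM (log axis) in each of the 8 libraries for the 3 class II chains, Cd74, the class I heavy chains, 9 markers of B and plasma cells and 11 markers of microglia. In 24m replicate 1 the B and plasma cell markers reach 1160 CPM and class II and Cd74 stand far above the other libraries, while the microglia markers stay between 453 and 615 CPM in all 8.

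Microglia are the main resident immune cells of the brain, so the members were also set against the microglia markers. The ratio of Cd74 to the summed microglia markers, each per kilobase, was 0.0341 to 0.0437 at 6m, 0.148 in 24m replicate 1 and 0.0244 to 0.0368 in the other 24m libraries (exact permutation p 0.943, and 0.171 without 24m replicate 1). The ratio of H2-K1 plus H2-D1 to the same markers was 0.447 to 0.496 at 6m, 0.704 in 24m replicate 1 and 0.499 to 0.538 in the other 24m libraries. All 24m values lay above all 6m values (two-sided exact permutation p 0.0286, adjusted over 9 ratios 0.129, and 0.0571 without 24m replicate 1, adjusted 0.103). The ratio of the class II chains to the class I heavy chains was 0.0817 to 0.118 at 6m and 0.0473 to 0.0688 in 24m replicates 2 to 4, with 0.325 in 24m replicate 1 (adjusted exact permutation p over 9 ratios 0.932, and 0.103 without that library).

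Levels can be compared between members only per length of transcript, here in CPM per kilobase of all annotated exons. At 6m the order was H2-D1 (50.8 ± 5.72, SD, n = 4), B2m (34.0 ± 1.41), H2-K1 (17.3 ± 1.05), Tap2 (6.50 ± 0.776), Tapbp (6.24 ± 0.389), Cd74 (5.57 ± 0.739), H2-Ab1 (2.83 ± 0.676), H2-Eb1 (2.73 ± 0.578), H2-Aa (1.14 ± 0.28) and Tap1 (0.979 ± 0.0525). The ranges of neighbours overlapped among Tap2, Tapbp and Cd74, between H2-Ab1 and H2-Eb1, and between H2-Aa and Tap1. The ranges of H2-D1, B2m and H2-K1 did not on this scale. In 24m replicates 2 to 4, Tapbp (8.54 ± 0.627, n = 3) stood above Tap2 (5.62 ± 0.591) and Cd74 (4.39 ± 1.12). The annotated exons of most members span far more bases than the canonical transcript (H2-Aa 4292 against 1128, Tap1 6007 against 3105), so the order depends on the length used. Per kilobase of the canonical transcript, the order at 6m was H2-D1 (71.8 ± 8.09), B2m (65.9 ± 2.73), H2-K1 (34.1 ± 2.07), Cd74 (9.80 ± 1.30), Tapbp (9.23 ± 0.576), Tap2 (7.79 ± 0.93), H2-Ab1 (6.00 ± 1.43), H2-Aa (4.33 ± 1.06), H2-Eb1 (4.17 ± 0.883) and Tap1 (1.89 ± 0.102). The ranges of H2-D1 and B2m overlapped on that scale.

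Across the 8 libraries the members fell into patterns that can be described by their correlations on the log2 CPM scale, with libraries that share age and, in 1 case, an unusual make-up. H2-Ab1 and H2-Eb1 had Pearson r of 0.999 over 8 libraries and 0.997 over the 7 without 24m replicate 1. H2-K1 and B2m had r of 0.987 and 0.935. Between the classes, H2-K1 and H2-Ab1 had r of 0.84 over 8 libraries and -0.16 over 7. Tap2 was closer to the class II genes, with r to Cd74 of 0.773 over 8 libraries and 0.761 over 7, and had r to Tap1 of 0.503 and -0.19.

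Among 13517 other genes, those most like the mean of H2-K1, H2-D1 and B2m over the 8 libraries were Cd52, Pld4, Lag3, H2-Q7 and Pgghg, with Pearson r of 0.98 to 0.994. Those most like the mean of the class II chains and Cd74 were Psmb9, Ighm, Uba7, Tgtp2 and Lsp1, with r of 0.971 to 0.982. All 10 were higher in 24m replicate 1 than the mean at 6m and the mean of the other 24m libraries. For Cd52 these levels were 14.7 CPM, 4.29 CPM and 5.20 CPM in that order, and for Psmb9 they were 8.82 CPM, 3.89 CPM and 3.25 CPM.

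Of 82 further genes of antigen presentation and interferon response in 8 lists, 78 were tested, 27 were called higher (34.6%, against 25.3% of all genes) and 5 lower (6.41%, against 18.3%). Their median log2FC was 0.28, and 0.17 without 24m replicate 1, when 25 were called higher (32.1%, against 27.8%) and 9 lower (11.5%, against 21.9%). Among the 16 tested class I and class I-like genes, H2-Q4, H2-Q6, H2-Q7 and Mr1 were called higher and H2-T10 and Fcgrt lower (25.0% and 12.5%, near or below the share of all genes). Of these only H2-Q7 lost its call without 24m replicate 1. H2-Q6, a class Ib heavy chain, had a log2FC of 1.82 ± 0.44 (edgeR padj 0.00558) and kept its call at 1.11 without 24m replicate 1. H2-Q7, a neighbour of the same family, read 3.95 to 5.88 CPM at 6m, 30.4 CPM in 24m replicate 1 and 4.62 to 6.90 CPM across 24m replicates 2 to 4. Its call (log2FC 1.41, padj 0.0435) was lost without 24m replicate 1 (0.42, padj 0.0596). So it was in limma-voom (1.03, padj 0.134), in DESeq2 after quantile normalisation (1.15, padj 0.128) and on leaving out any single 6m library (padj 0.0661 to 0.103). The Q genes are near-identical paralogs, so their separate values are uncertain.

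The genes that cut and trim peptides for class I held calls in both directions. The catalytic immunoproteasome subunits Psmb8 and Psmb9 had log2FC of 0.31 and 0.26 (edgeR padj 0.385 and 0.526), and -0.12 and -0.25 without 24m replicate 1. Psmb10, the third catalytic subunit, fell from 146 ± 9.3 to 71.1 ± 20.5 CPM (SD, n = 4 per age, log2FC -1.04 ± 0.17, padj 0.00079). Psme2, of the proteasome activator, fell as well (log2FC -0.77 ± 0.17, padj 0.00328). Both kept their call without 24m replicate 1, and both lost it when the length trend was removed (-0.47 and -0.35). Psme2 also lost it with library totals alone (-0.57). Of 6 assembly and trimming genes 2 were called higher (33.3%, against 25.3% of all genes), the aminopeptidases Erap1 (0.83, padj 0.00184) and Lnpep (3.05, padj 0.000561), with 0.95 and 3.37 without 24m replicate 1. Erap1 fell under the fold-change threshold in DESeq2 after quantile normalisation (0.51) and in the fit that joined length trend removal to a replicate block (0.57). Of 11 tested genes for class II processing 1 was called (9.09%, against 25.3% of all genes higher and 18.3% lower), the ubiquitin ligase Marchf1, which removes class II from the surface (0.95 ± 0.24, padj 0.00718, and 1.13 without 24m replicate 1). Without that library Ifi30, a lysosomal reductase, was called lower (-0.60, padj 0.00127), against -0.23 (padj 0.476) with all libraries. Of 5 co-stimulation genes 3 were called higher (60%, against 25.3% of all genes), and of these Icosl lay above 1 CPM (1.07, padj 0.000206, and 1.03 without 24m replicate 1). Without that library Cd40 was called lower (-1.15, padj 0.01), against -0.63 (padj 0.213) with all libraries.

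Each class has a master regulator of its transcription. Nlrc5, the transactivator of class I genes, had 14 to 25 counts at 6m and 65 to 166 at 24m, with every 24m library above every 6m library. Its log2FC was 1.82 ± 0.31 (edgeR padj 0.000835), and 1.59 without 24m replicate 1. Ciita, the transactivator of class II genes, read 2.09, 1.44, 1.99 and 2.27 CPM at 6m and 1.77, 1.35, 1.04 and 1.44 CPM at 24m. The ages overlapped, with a log2FC of -0.47 ± 0.20 (padj 0.0663), and Ciita was called lower without 24m replicate 1 (-0.59, padj 0.0175). It was called lower in 5 of 20 alternatives, among them the length trend removed (-0.83, padj 0.0134) and leaving out 6m replicate 2 (-0.59, padj 0.0301). Of the 12 regulators 5 were called higher and 1 lower (41.7% and 8.33%, against 25.3% and 18.3% of all genes), and 4 and 2 without 24m replicate 1 (33.3% and 16.7%, against 27.8% and 21.9%). Among those called higher were Rfx5, Creb1 and Nfya, which bind class II and class I promoters (log2FC 0.93, 1.29 and 1.12, and 1.02, 1.48 and 1.23 without 24m replicate 1). Irf8, an interferon regulatory factor of microglia and B cells, was called higher (0.75, padj 0.0119) but fell under the threshold without 24m replicate 1 (0.53), and did not pass the test with the length trend removed (0.46, padj 0.142) or in DESeq2 after quantile normalisation (0.44, padj 0.142). Rfxank, a partner of Rfx5, was called lower in both comparisons (-0.64 and -0.76) and in 14 of 20 alternatives, over which its log2FC ran from -0.76 to -0.43.

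Interferon genes were called higher in part. Ifng itself had 0 to 2 counts in each library and was not tested. Jak1, a kinase of the interferon receptors, was called higher (1.22, edgeR padj 0.000266, and 1.34 without 24m replicate 1). Of 17 interferon-stimulated genes 10 were called higher (58.8%, against 25.3% of all genes), with a median log2FC of 0.78. Among them were Oasl2 (1.52), Gbp2 (1.49), Usp18 (1.34) and Gbp3 (1.11). Without 24m replicate 1 there were 9 (52.9%, against 27.8%), and those genes had log2FC of 1.41, 1.04, 1.23 and 1.09.

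**Figure D4:**
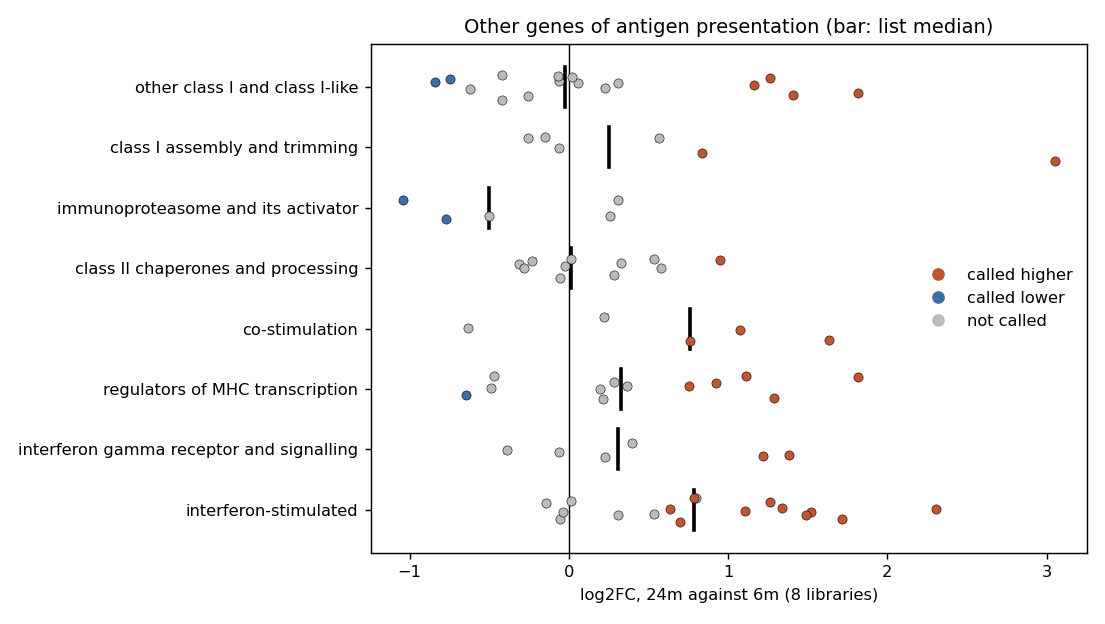
log2FC of 24m against 6m (8 libraries) for 78 tested genes in 8 lists around antigen presentation, each point 1 gene, coloured by its call, with a black bar at the list's median. The medians run from -0.50 for the immunoproteasome to 0.78 for interferon-stimulated genes, and the class I-like list has calls in both directions.

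Of the 10 members, 7 lie in the MHC interval bounded by H2 genes (GRCm39 chr17:34193607-37794472), with Tapbp just outside it and B2m and Cd74 on other chromosomes. Of 127 tested genes of the interval 6 were called higher (4.72%, against 25.3% of all genes) and 32 lower (25.2%, against 18.3%), with a median log2FC of -0.31. Without 24m replicate 1 there were 4 higher (3.15%, against 27.8%) and 46 lower (36.2%, against 21.9%). The 27 H2 genes had 3 calls higher and 1 lower with all libraries (11.1% and 3.70%) and a median of 0.06. Without 24m replicate 1 they had 2 higher and 5 lower (7.41% and 18.5%, against 27.8% and 21.9% of all genes) and a median of -0.32. With all 8 libraries the 100 other genes, Tap1 and Tap2 among them, had 3 calls higher and 31 lower and a median of -0.38. Beside Tap1, those called higher were the complement gene C4b (1.89, edgeR padj 2.4e-05) and the DNA damage gene Mdc1 (1.37, padj 0.000915), with 1.76 and 1.56 without 24m replicate 1.

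**Figure D5:**
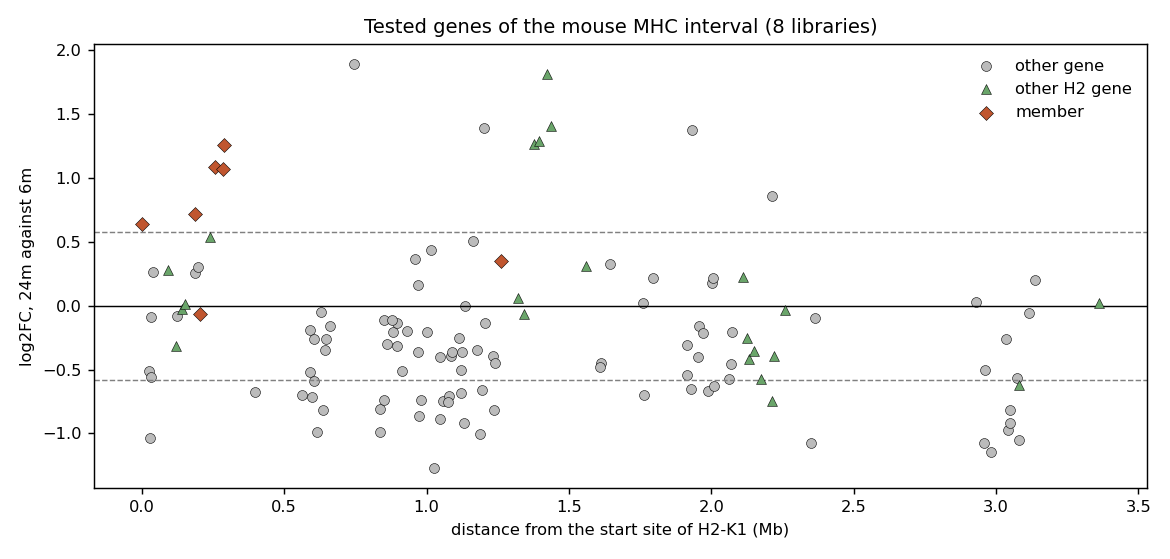
log2FC of 24m against 6m (8 libraries) for the 127 tested genes of the MHC interval by distance from the start site of H2-K1 in Mb, with members as diamonds, other H2 genes as triangles and all other genes as circles, and dashed lines at 0.58 in each direction. Of the 7 members shown, Tap2 alone lies below 0, while 31 of the 100 genes outside the H2 family were called lower.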

How the data were processed

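RNA of 8 brains was sequenced as paired-end reads from directional poly(A) libraries. As the labels and the paper's methods give it, the authors trimmed reads with Trim Galore 0.4.11, aligned them to GRCm39 with HISAT2 2.1.0 and deposited whole-number counts per Ensembl gene made with featureCounts. Strand and multimapping settings were not stated. Of 22430 identifiers, 22281 matched GENCODE M39 of the same build. The 149 others held 0.312% of counts.

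Here the counts were tested as deposited with edgeR 4.0.16 (TMM scaling, quasi-likelihood, age as the only term) over the 16730 genes that exceeded 5 counts in 4 or more libraries. CPM used TMM-scaled totals, and log2 CPM a prior count of 2. SE is the log2FC divided by the square root of F. DESeq2 1.42.0 and limma 3.58.1 served as alternatives, besides other scalings, filters, thresholds, length and GC trends, a replicate block and leaving out each library. On simulated counts for 16730 genes of the comparison of 24m with 6m, 77.5% of 200 genes changed by a log2 of 1 were called, with 7 false calls. The simulated libraries shared a common mean profile and none stood apart as 24m replicate 1 did. In the data far more genes were called (4237 higher and 3058 lower), so these figures need not hold there. Replicates were separate animals and differed by more than counting noise. Ratios and marker sums were compared by two-sided exact permutation over samples. Counting limits cover counting error only.

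All 10 members were named in full. From the lists around them, called genes of at least 1 CPM were named, up to 4 a list by size of change, with Ciita, Nlrc5, Ifng, H2-Ea, Psmb8 and Psmb9 whatever their values. Some items that this rule covers are not reported here. H2-T10, Fcgrt, Rfxank, Cd40, Ifi30 and the genes C4b and Mdc1 of the interval were named after their values were seen. Likeness was Pearson r over 8 libraries among genes of at least 1 CPM. Members and lists were chosen with earlier results of these data known.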

Additional observations from a re-analysis of the deposited data

Results flagged for a closer look

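Each value here is a gap ratio, the distance of the highest or lowest of 4 libraries to its nearest neighbour divided by the range of the 4, and results past the 95% critical value of Dixon's test are given. Of 60 groups examined 9 passed, where chance alone passes about 1 in 20. The groups share libraries and correlated genes, so they are not independent, and all that passed but Tapbp at 6m come from 24m replicate 1. In 24m replicate 1 the gap ratio was 0.925 for H2-Aa, 0.948 for H2-Ab1, 0.953 for H2-Eb1 and 0.915 for Cd74, each with that library highest. The same library was highest in the summed markers of B and plasma cells (0.967, at 1160 CPM) and of monocytes and neutrophils (0.863, at 7.71 CPM). Plac8 made up 3.17 CPM of the latter sum, against 0.112 to 0.138 CPM in the other 24m libraries. S100a8 and S100a9 were also above those libraries, while Ly6c2 read 2.36 CPM against 1.47 to 2.74 CPM. 24m replicate 1 was also highest in the ratio of the class II chains to the class I heavy chains (0.923) and of Cd74 to microglia markers (0.899). The remaining result was Tapbp at 6m, where replicate 4 was highest (0.842, at 30.05 CPM).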

How the results depend on the processing

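Of 200 log2FC values of the 10 members under 20 alternatives, 166 kept their direction and stayed called or not called as in the fit to all libraries. Those counted as not called include H2-Aa, H2-Ab1, H2-Eb1 and Cd74 in both DESeq2 fits, which gave them no padj. Among the genes whose log2FC is given here, values that changed sign without 24m replicate 1 were H2-Aa (-0.42), H2-Ab1 (-0.78), H2-Eb1 (-0.70), Cd74 (-0.34), Psmb8 (-0.12) and Psmb9 (-0.25). Psmb9 was also negative with DESeq2 on quantile-normalized counts (-0.022). Tap2, near 0, turned positive with the GC trend removed (0.13), with library totals alone (0.14), without 24m replicate 4 (0.025) and without 6m replicate 4 (0.0025). Over the fits that left out 1 library each, the highest values were 1.60 for H2-Aa, 1.42 for H2-Ab1, 1.40 for H2-Eb1, 1.23 for Cd74, 0.48 for Psmb8 and 0.46 for Psmb9, and Tap2 ran from -0.20 to 0.03. The cause was not tested. Members called higher numbered 2 with DESeq2 (25.1% of all genes called higher) or with no threshold on the fold change (32.7%), 3 with the GC trend removed (25.0%) or library totals alone (32.6%), 4 with the length trend removed (22.7%; H2-K1, H2-D1, B2m and Tapbp, but not Tap1), and 0 with limma-voom (24.5%), with a fold-change threshold of 1 (15.2%) or with padj at most 0.01 (3686 of 16730 genes). Leaving out single libraries gave 0 to 3 members higher and 0 to 2 lower. Among all 16730 genes, these fits called 3844 to 4644 higher and 2623 to 3661 lower.

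Library totals alone moved the median of all genes to 0.21, lowered the genes called lower from 3058 to 1747, and raised the log2 differences of summed markers of microglia to 0.42, border macrophages 0.31, T and NK cells 0.62, dendritic cells 0.61, neurons 0.21, astrocytes 1.31 and oligodendrocytes 0.28. With no threshold on the fold change 4999 genes were called lower, and with a threshold of 1 there were 2542 higher and 950 lower.

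Same-numbered libraries of the 2 ages had correlations of 0.27, 0.14, 0.08 and -0.35 between their deviations, so the numbers do not pair the animals. With a replicate block 1 member was called higher and 0 lower, as without it, beside 24.6% and 18.7% of all genes. The class II values were smaller with the block (H2-Ab1 0.04, H2-Eb1 0.10, H2-Aa 0.35 and Cd74 0.29). With the length trend removed and a replicate block 4 members were called higher and 0 lower, beside 22.4% and 15.4% of all genes.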
